A study of Neurospora crassa with 54 samples.

Results

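A group of 59 genes of the fungus Neurospora crassa was studied because their transcripts differed several-fold among libraries that all came from strains deleted for hH2Az, the gene of the histone variant H2A.Z. Of 10398 genes in the deposited table, 9614 have a midpoint more than 200 kb from both chromosome ends, and the 59 were taken from those. They were chosen by their counts in the 6 libraries lacking H2A.Z, divided by the library total and scaled to CPM (reads for every 1000000 counted), with 0.5 CPM added. Set X held ∆hH2Az replicates 1 and 2 and ∆hH2Az;∆set-7 replicate 3, and set Y held ∆hH2Az replicate 3 and ∆hH2Az;∆set-7 replicates 1 and 2. In 56 genes (0.582% of 9614) the lowest library of set X was at least 3 times the highest of set Y, and in 3 genes (0.0312%) the reverse held. Since these 6 libraries chose the genes, their values are given as a description with no test.

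H2A.Z is a variant of histone H2A that a remodelling complex exchanges into nucleosomes, often those beside promoters. SET-7 is the catalytic subunit of Polycomb repressive complex 2, which methylates lysine K27 of histone H3. In Neurospora this mark covers silent genes, many of them close to chromosome ends, and its loss is known to let some of those genes be transcribed.

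The series compared 4 strains by RNA sequencing with 3 replicates each, among 54 samples of which 42 chromatin samples were not analysed here. The strains were Wild type, ∆set-7 (set-7 deleted), ∆hH2Az (the H2A.Z gene hH2Az deleted) and ∆hH2Az;∆set-7 (both deleted). Mycelium, the vegetative filament of the fungus, was grown for 12 h in minimal medium (VMM) with 2% glucose at 30 °C in constant light, and poly(A) RNA was sequenced from stranded libraries. In every strain replicates 1 and 2 carry the tag 920 in their labels and replicate 3 carries another number, and the labels do not say what the tag means. Each of sets X and Y therefore holds 2 libraries with the tag 920 and 1 with the tag of replicate 3, from both deletion strains. Nothing in the labels says that replicates came from separate cultures, so p-values measure the spread between these libraries only, which may be technical.

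The labels were checked first. The transcript of hH2Az stood at 57.3, 64.4 and 76.7 CPM in Wild type and at 71.2, 87.7 and 92.1 CPM in ∆set-7. It stood at 17.7, 19.3 and 35.2 CPM in ∆hH2Az and 40.6, 41.3 and 24.2 CPM in ∆hH2Az;∆set-7, all below the strains that keep the gene but not absent, with 333 to 678 reads per library. The labels do not describe how much of the gene was deleted and the protein was not measured here, so "lacking H2A.Z" follows the labels. Within the libraries lacking H2A.Z this remainder was itself lower in set X (17.7, 19.3 and 24.2 CPM) than in set Y (35.2, 40.6 and 41.3 CPM). The gene overlaps another annotated gene and counts were made without strand, so the source of the remaining reads is less certain. Across the 9614 genes every library of set Y lay above every library of set X in 1168 genes (12.1%), and the reverse held in 874 (9.09%).

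For set-7, every library of a deletion strain was below every library that keeps the gene, but reads remained. The set-7 transcript stood at 7.29, 8.06 and 8.04 CPM in Wild type and at 8.82, 9.61 and 13.5 CPM in ∆hH2Az. It stood at 3.54, 2.90 and 2.94 CPM in ∆set-7 and at 5.53, 3.72 and 3.28 CPM in ∆hH2Az;∆set-7, with 45 to 85 reads per library in these strains. The sides were closest between Wild type replicate 1 and ∆hH2Az;∆set-7 replicate 1, and the extent of this deletion is not described either. A second check used 63 genes near chromosome ends that were called higher in ∆set-7 than in Wild type, so that only the 6 libraries lacking H2A.Z give a check. Their median was 1.37, 1.77 and 0.779 CPM in ∆hH2Az and 14.97, 14.6 and 25.5 CPM in ∆hH2Az;∆set-7. Replicate 3 of ∆hH2Az and replicate 3 of ∆hH2Az;∆set-7 were thus on the side of their labels for set-7. In the 59 genes each sat with replicates 1 and 2 of the other strain, because the genes were chosen for that.

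**Figure D1:**
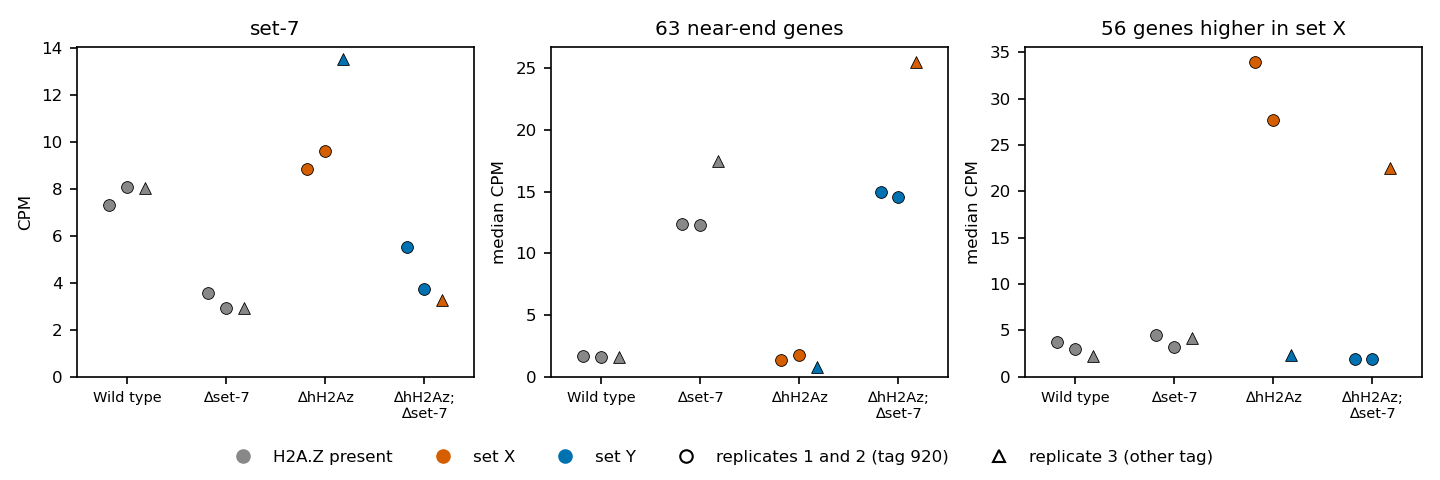
CPM of set-7 (left), the median CPM of 63 near-end genes that respond to loss of SET-7 (middle) and the median CPM of the 56 genes higher in set X (right), with 1 point per library and replicates 1 to 3 from left to right within a strain. The first 2 panels separate libraries by set-7 genotype (in the middle one, for Wild type and ∆set-7, by the choice of genes). The right panel separates set X (22.6 to 34.0 CPM) from the other 9 libraries (1.86 to 4.51 CPM), for set Y by the choice of genes.

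Library totals ranged from 13581416 to 19720473 counts. Within each of the 4 strains replicates 1 and 2 were closest. Pearson's r of log2(CPM + 0.5) across genes was 0.997 for them in ∆hH2Az and 0.993 in ∆hH2Az;∆set-7, while pairs with replicate 3 gave 0.967 and 0.970, and 0.963 and 0.965. In Wild type and ∆set-7 it was 0.995 and 0.994 for replicates 1 and 2, and pairs with replicate 3 gave 0.979 to 0.986. These correlations are across genes, which are not independent replicates.

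The 56 genes higher in set X were mostly weakly transcribed wherever H2A.Z was present. Their median level was 3.76, 3.00 and 2.25 CPM in Wild type and 4.51, 3.21 and 4.19 CPM in ∆set-7. It was 34.0, 27.8 and 2.28 CPM in ∆hH2Az, and 1.86, 1.86 and 22.6 CPM in ∆hH2Az;∆set-7. That replicate 3 sat apart from its partners in both strains, in opposite directions, was fixed by the choice of genes. Summed over the 56 genes, the level in set X was 16636.5, 15166 and 8300 CPM (the last from ∆hH2Az;∆set-7), against 681 to 858 CPM in set Y and 560 to 1407 CPM in the 6 libraries that keep H2A.Z. In such bulk samples, fewer cells transcribing a gene and less RNA per cell cannot be told apart.

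**Figure D2:**
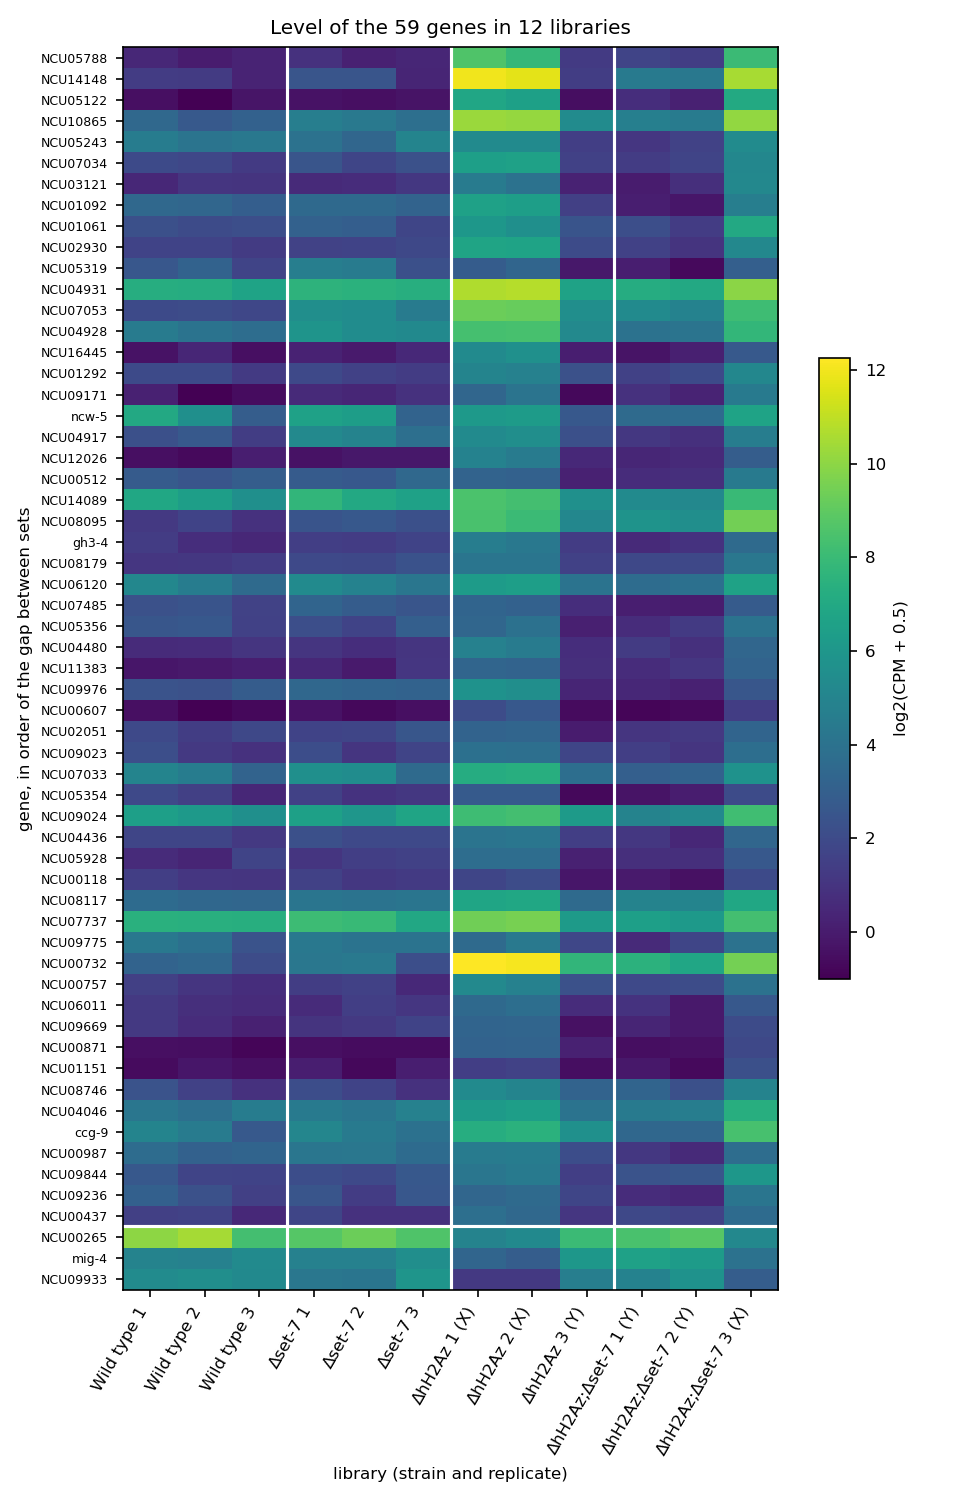
Level of each of the 59 genes in each of the 12 libraries, as log2(CPM + 0.5) by colour, with the 56 genes higher in set X above the white line and the 3 higher in set Y below it, each in order of the gap. Most rows above the line are dark in Wild type and ∆set-7 and bright only in the libraries marked X.

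The largest gap, the lowest library of the higher set over the highest of the lower set in CPM + 0.5, belonged to NCU05788 on chromosome VII (3828325 to 3828939, NC12 assembly), at 71.3. It stood at 0.884, 0.516 and 0.769 CPM in Wild type, 1.37, 0.682 and 0.839 CPM in ∆set-7, 393, 230.0 and 1.92 CPM in ∆hH2Az, and 2.73, 2.17 and 263 CPM in ∆hH2Az;∆set-7. The gene was barely detected in 9 libraries and was abundant in the 3 of set X. No symbol is given for it in the RefSeq table, nor for most of the 59, so no function is stated.

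NCU14148, annotated as a non-coding RNA on chromosome VII (3462488 to 3463253), reached a higher level. Its values were 2.06, 1.93 and 0.769 CPM in Wild type, 5.20, 5.06 and 0.779 CPM in ∆set-7, 4086, 3364 and 2.13 CPM in ∆hH2Az, and 21.8, 19.2 and 1477 CPM in ∆hH2Az;∆set-7. Within set Y the double deletion lay above ∆hH2Az replicate 3, and the gap to set X was 66.2. The gene overlaps NCU08130 on the same strand, and reads over both are not counted, so its value is less certain. NCU08130 itself stayed between 223 and 390 CPM in all 12 libraries.

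NCU05122, on chromosome VI (3679456 to 3680306), was close to silent outside set X. It had 0.221, 0 and 0.355 CPM in Wild type and 0.285, 0.227 and 0.300 CPM in ∆set-7, and the count of 0 in Wild type replicate 2 allows up to 0.193 CPM, a limit that covers counting error only. It had 114, 93.1 and 0.208 CPM in ∆hH2Az and 1.17, 0.682 and 132 CPM in ∆hH2Az;∆set-7. The 3 libraries of set X were close to one another, with a gap of 56.0 to set Y.

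NCU10865 on chromosome VII (1449282 to 1451069) had a measurable level everywhere. Its values were 10.7, 5.99 and 8.16 CPM in Wild type, 25.1, 20.1 and 13.6 CPM in ∆set-7, 1249, 1164 and 41.0 CPM in ∆hH2Az, and 25.5, 22.7 and 1088 CPM in ∆hH2Az;∆set-7. Set Y overlapped ∆set-7 and lay above Wild type, and the gap to set X was 26.3. Only 6 of the 56 genes had a gap of 10 or more, and 22 had one of at least 5.

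**Figure D3:**
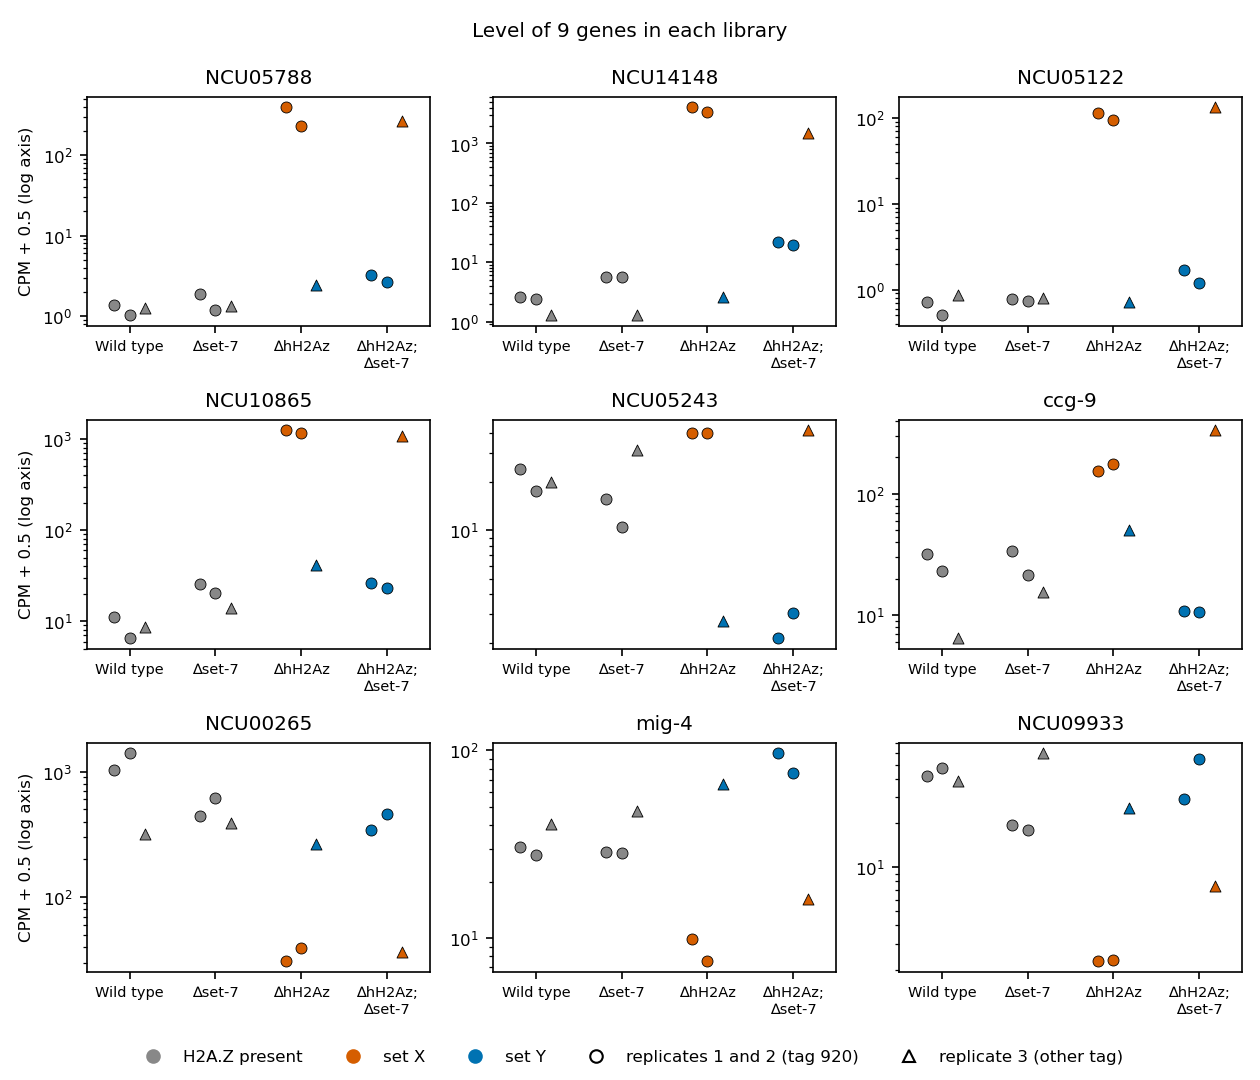
CPM + 0.5 on a log axis for 9 of the 59 genes, with 1 point per library, replicates 1 to 3 from left to right within a strain, grey where H2A.Z is present, orange for set X and blue for set Y. The upper 6 genes are higher in set X and the lower 3 in set Y. By the choice of genes, the triangles of ∆hH2Az and ∆hH2Az;∆set-7 (replicate 3) lie opposite to the circles of their own strain.

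In other genes the strains that keep H2A.Z lay between the sets. NCU05243 on chromosome IV (5629845 to 5633122) had 23.6, 16.9 and 19.5 CPM in Wild type, 15.2, 9.95 and 31.2 CPM in ∆set-7, 39.7, 39.9 and 2.23 CPM in ∆hH2Az, and 1.63, 2.54 and 41.3 CPM in ∆hH2Az;∆set-7. On the log2 scale, set Y stood further from Wild type than set X did. It overlaps NCU05244 on the opposite strand, and counts made without strand cannot tell the transcripts apart. NCU01092 on chromosome V (2888783 to 2889727) behaved alike, with 7.39 to 11.1 CPM in the 6 libraries that keep H2A.Z, 24.9 to 96.7 CPM in set X and 0.372 to 2.34 CPM in set Y.

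The other 4 of the 10 genes with the largest gaps resembled the first pattern. NCU07034 on chromosome IV had 1.89 to 5.08 CPM with H2A.Z, 88.4, 94.8 and 34.7 CPM in set X and 2.02 to 2.85 CPM in set Y. NCU01061 on chromosome V had 2.94 to 8.28 CPM with H2A.Z, 63.3, 48.0 and 129 CPM in set X and 2.04 to 4.98 CPM in set Y. NCU02930 and NCU03121, both on chromosome I, had gaps of 8.70 and 9.18. In these 4 genes set Y overlapped the range of the strains that keep H2A.Z.

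Over all 56 genes, every library of Wild type and ∆set-7 lay below the lowest library of set X in 48. In 18 genes all 6 of those libraries were at or below the highest library of set Y, in 13 all 6 were above it, and in 38 their range overlapped the range of set Y. The Wild type mean on the log2 scale was nearer to set Y in 44 genes and the ∆set-7 mean in 42. The median difference from Wild type in log2(CPM + 0.5) was 2.82 for set X and -0.076 for set Y, beside 0.11 and 0.16 over all 9614 genes. The genes were chosen for the difference between the sets, so these medians describe where Wild type falls and are not a test.

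**Figure D4:**
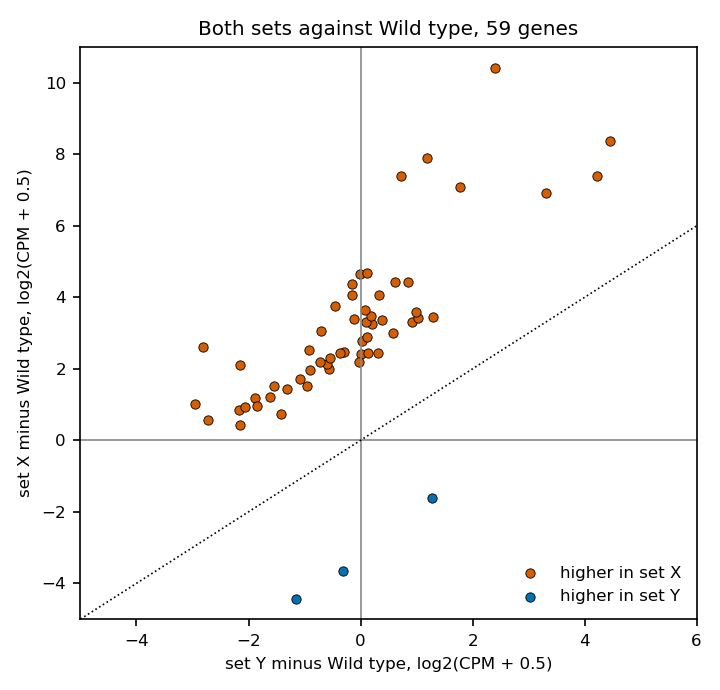
Mean log2(CPM + 0.5) of set X (vertical) and set Y (horizontal), each minus the Wild type mean, with 1 point per gene and the dotted line marking equal values. The 56 genes higher in set X (orange) all lie above 0 on the vertical axis and scatter around 0 on the horizontal one, and the 3 genes higher in set Y (blue) lie below 0 on the vertical axis.

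The 8 genes in which a library with H2A.Z reached set X include ncw-5, which encodes a non-anchored cell wall protein, on chromosome I (7451777 to 7453525). Its values were 126, 48.1 and 7.15 CPM in Wild type, 97.0, 83.1 and 8.93 CPM in ∆set-7, 69.4, 77.3 and 5.81 CPM in ∆hH2Az, and 11.3, 11.9 and 102 CPM in ∆hH2Az;∆set-7. The level in replicate 3 was far below replicates 1 and 2 in all strains but the double deletion, where it was far above. The gene overlaps NCU00715 on the opposite strand, which had 11.9 to 26.2 CPM.

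Among the other named genes, ccg-9 on chromosome VII (1002874 to 1007545) encodes a clock-controlled trehalose synthase. It had 31.3, 22.6 and 5.91 CPM in Wild type, 33.3, 21.1 and 14.98 CPM in ∆set-7, 154, 177 and 49.4 CPM in ∆hH2Az, and 10.2, 10.04 and 335 CPM in ∆hH2Az;∆set-7. Within set Y, ∆hH2Az replicate 3 was above the double deletion and above every library that keeps H2A.Z. The gene gh3-4 on chromosome IV (846341 to 849048), for a glycoside hydrolase of family GH3, had 0.887 to 2.64 CPM with H2A.Z, 23.7, 19.2 and 11.6 CPM in set X and 0.977 to 2.02 CPM in set Y.

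The order of the libraries within set X varied between genes. Replicate 3 of ∆hH2Az;∆set-7 was below both ∆hH2Az replicates in 30 of the 56 genes, above both in 18 and between them in 8. These counts describe libraries that chose the genes, and no share over all interior genes is given beside them. Strain and replicate 3 cannot be told apart in them. The gene NCU00732 on chromosome I (7386748 to 7388890), singled out after its values were seen, is one of the 30. It had 8.84, 10.3 and 3.72 CPM in Wild type, 18.8, 20.3 and 4.07 CPM in ∆set-7, 4901, 4365 and 213 CPM in ∆hH2Az, and 180.0, 114 and 725 CPM in ∆hH2Az;∆set-7. Here all 6 libraries lacking H2A.Z, those of set Y included, were above all 6 that keep it.

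Depth limits the weaker genes. In 38 of the 56 the highest library of set Y was at or below 5 CPM, and in 20 the lowest library of set X was at or below 10 CPM. In 13 the lowest library of set X was at 100 CPM or more. The 2 genes nearest above the threshold of 3 were NCU00437 (3.02) and NCU09236 (3.03), and the nearest below it were NCU03228 (2.96) and gh76-3 (2.94), a glycoside hydrolase gene of family GH76.

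The 3 genes higher in set Y ran the other way, and set X stood apart from all other libraries. NCU00265 on chromosome III (3218739 to 3220987) had 1029.9, 1401 and 317 CPM in Wild type, 439, 620.0 and 388 CPM in ∆set-7, 30.3, 38.6 and 265 CPM in ∆hH2Az, and 345, 455 and 35.8 CPM in ∆hH2Az;∆set-7. Set Y lay within or close to the range of the strains that keep H2A.Z, and set X far below it, with a gap of 6.78.

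The gene mig-4 on chromosome VII (421275 to 422778) had 30.0, 27.4 and 39.9 CPM in Wild type, 28.2, 27.9 and 47.0 CPM in ∆set-7, 9.38, 7.01 and 65.5 CPM in ∆hH2Az, and 96.2, 75.8 and 15.6 CPM in ∆hH2Az;∆set-7. The strains that keep H2A.Z were between the sets without overlap, and the gap was 4.08. NCU09933 on chromosome IV (5261954 to 5263452) had 41.4, 46.8 and 38.1 CPM in Wild type, 18.7, 17.4 and 59.2 CPM in ∆set-7, 1.77, 1.82 and 24.8 CPM in ∆hH2Az, and 28.5, 53.7 and 6.91 CPM in ∆hH2Az;∆set-7, with a gap of 3.41. In all 3 genes every library that keeps H2A.Z was above every library of set X. The nearest genes below the threshold in this direction were NCU09210 (2.96) and NCU09165 (2.80).

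The question of whether these genes also vary where H2A.Z is present can be tested, because the choice used no Wild type or ∆set-7 library. Across the 6 libraries, 8074 genes passed a filter on low counts, among them 53 of the 59 (50 of the 56 and all 3). The 3 tests below share these 6 libraries. Each is edgeR's quasi-likelihood test, 2-sided, with Benjamini-Hochberg adjustment over the 8074 genes and a threshold of 0.05.

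In ∆set-7 against Wild type, 2 of the 53 genes rose and none fell in edgeR's test, where 1.42% of all genes tested rose and 0.0124% fell. DESeq2's Wald test called 4 higher and none lower, where it called 2.51% and 0.0619% of all genes. NCU07053 on chromosome VI (348239 to 349971) had 3.39, 3.80 and 3.02 CPM in Wild type and 46.0, 43.2 and 22.0 CPM in ∆set-7. All 3 libraries of ∆set-7 were above all 3 of Wild type, and the log2 fold change in edgeR's test was 3.47 (SE 0.400, adjusted p = 0.00278). The gene had 621, 584 and 46.1 CPM in ∆hH2Az and 40.5, 29.2 and 286 CPM in ∆hH2Az;∆set-7, so set Y lay near ∆set-7 and above Wild type. In a fit that also takes in the 6 libraries lacking H2A.Z its call was lost (adjusted p = 0.283, edgeR). The gene was chosen for its spread in those 6 libraries, and that fit takes its error from them as well. Why the call was lost was not tested.

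The other gene was NCU04917 on chromosome IV (725445 to 727173), with 4.27, 6.06 and 2.13 CPM in Wild type and 36.9, 29.7 and 13.8 CPM in ∆set-7. Its log2 fold change was 2.70 (SE 0.534, adjusted p = 0.0490, edgeR), again with no overlap between the strains. This call was lost in 5 of the 6 fits that leave out 1 library (adjusted p up to 0.153, edgeR). Only the fit without ∆set-7 replicate 3 kept it. It was also lost with DESeq2's size factors (adjusted p = 0.0517, edgeR). The fit of all 12 libraries gave an adjusted p of 0.594 (edgeR), with the same limit as for NCU07053. Within the libraries tagged 920 alone, 2 against 2, NCU07053 gave a log2 fold change of 3.64 and NCU04917 one of 2.69, and 11 of the genes rose and 2 fell, where 3.41% and 2.03% of all genes did. The tag of replicate 3 has 1 library per strain and gives no test.

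The tested genes as a whole sat slightly higher in ∆set-7, as a description. The median log2 fold change was 0.35 over the 53 genes and -0.0036 over all genes tested, and 42 of the 50 genes higher in set X had a value above 0. Most of these did not pass the test one by one; 11 of the 53 had an unadjusted p under 0.05, as did 8.3% of all genes tested.

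The tag in the labels was tested next, as that of replicate 3 against 920 with strain in the model. None of the 53 genes were higher with the tag of replicate 3 and 10 fell in edgeR's test, 18.9% of the 53, where 2.95% of all genes tested rose and 1.92% fell. An unadjusted p under 0.05 was found for 26 of the 53 and for 26.5% of all genes tested. DESeq2's Wald test called 0 higher and 19 lower, where it called 6.18% and 5.91% of all genes. Deviations of same-numbered libraries of the 2 strains from their strain means were positively correlated across genes. A shift shared by both replicates 3 would also give this, so pairing by number is possible but not shown. The 2 replicates 3 may not be independent. This test treats them as independent, no block could be added, and its p-values may be too small. The lowest was ncw-5, which was at 7.15 and 8.93 CPM in the 2 replicates 3 and 48.1 to 126 CPM in the 4 tagged 920 (log2 fold change -3.76, SE 0.418, adjusted p = 0.0305, edgeR). NCU14148 followed at -2.38 (SE 0.390, adjusted p = 0.0330), with 0.769 and 0.779 CPM against 1.93 to 5.20 CPM. NCU05319 on chromosome IV (5340181 to 5342662) came next at -2.21 (SE 0.352, adjusted p = 0.0330), with 2.84 and 4.25 CPM against 5.60 to 24.7 CPM.

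The libraries of the 2 tags did not overlap in these 3 genes. The other 7 genes that fell were NCU00732, NCU07033, ccg-9, NCU04917, NCU06120, NCU14089 and NCU04931, with log2 fold changes from -2.11 to -0.68. All 10 belong to the genes higher in set X, and among the 50 of those that were tested 42 had a value below 0. The median was -0.68 over the 53 genes and -0.0093 over all genes tested.

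This result rested on single libraries. Without ∆set-7 replicate 1 edgeR called no gene, without Wild type replicate 2 ncw-5 was the only call left among the 53, and without Wild type replicate 3 there were 16 calls (2 higher, 14 lower), where 10.2% and 9.38% of all genes were called. Every log2 fold change of the 10 kept its sign in all of the fits that leave out 1 library. The 3 higher in set Y were not called for the tag, with log2 fold changes of -1.44 for NCU00265, 0.31 for mig-4 and 0.54 for NCU09933.

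**Figure D5:**
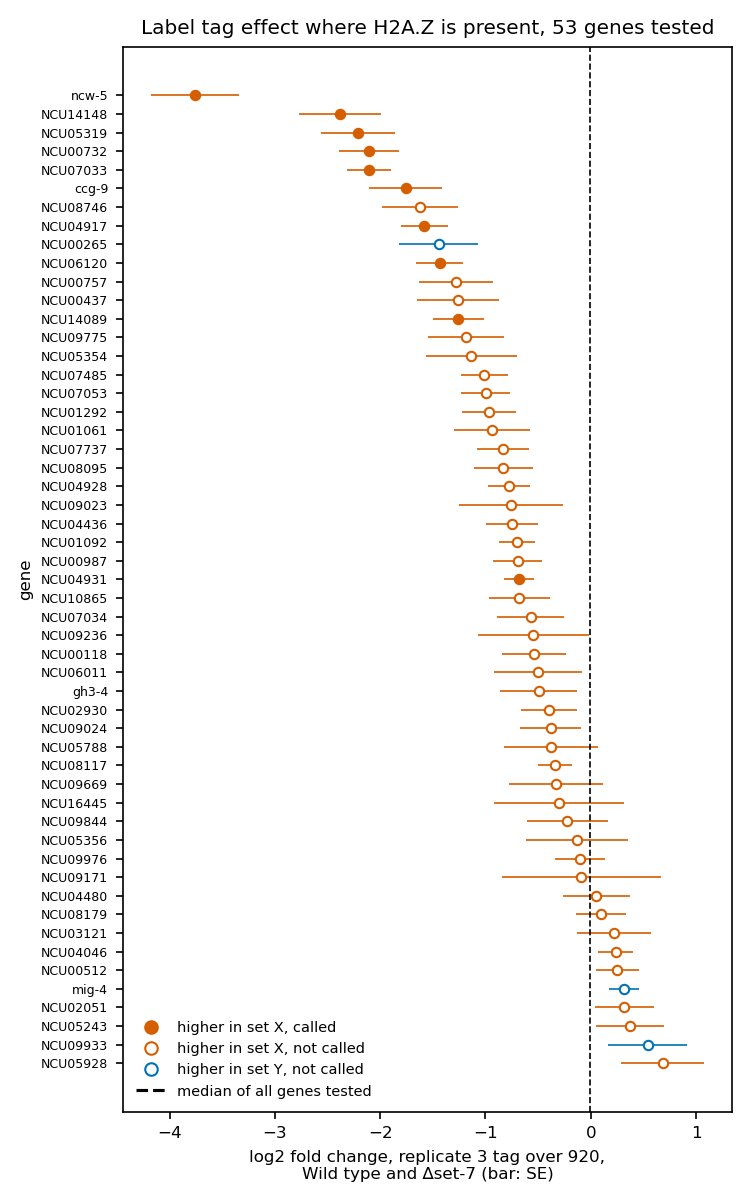
Log2 fold change of the tag of replicate 3 over the tag 920 in Wild type and ∆set-7 for the 53 genes tested, with bars for the SE, filled points where the adjusted p of edgeR's test was under 0.05 and a dashed line at the median of all genes tested (-0.0093). Of the 50 genes higher in set X (orange), 42 lie below 0, and the 10 filled points run from -3.76 to -0.68.

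Replicates of Wild type and ∆set-7 spread more over these genes than over all interior genes. In Wild type the highest replicate was at a median of 1.72 times the lowest over the 53 genes, beside 1.45 times over 7488 interior genes tested, and in ∆set-7 the values were 1.67 and 1.53. A spread of 3-fold or more was seen in 5 of 53 genes (9.43%) in Wild type and 7 of 53 (13.2%) in ∆set-7, beside 2.54% and 3.78%. These counts are descriptive, and no test was made over the list. The comparison was not matched for level. Without the filter on low counts, the median of the Wild type mean was 2.87 CPM for genes higher in set X. It was 42.1 CPM for those higher in set Y and 13.9 CPM for all interior genes. Whether the wider spread goes beyond what a low level gives was not tested.

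Sets X and Y are the 2 sides of a difference of the tag effect between strains among the libraries lacking H2A.Z. That difference was therefore tested where H2A.Z is present (the tag effect in ∆set-7 minus that in Wild type). The test is not the rule itself, which compared the lowest library of one set with the highest of the other. In each strain this sets 1 library against 2, so the p-values rest on the spread between replicates 1 and 2 alone and hold no measure of how replicate 3 varies. The calls are therefore given as candidates only. Of the 53 genes, 2 were called higher and 1 lower, where 1.85% and 0.805% of all genes tested were. NCU05356 on chromosome II (1410595 to 1412436) had 5.37, 5.74 and 2.48 CPM in Wild type and 4.00, 2.67 and 7.55 CPM in ∆set-7, and the difference was 2.25 in log2 (SE 0.455, adjusted p = 0.0499, edgeR). For NCU09933 it was 1.83 (SE 0.252, adjusted p = 0.0339), and for NCU07737 on chromosome V (484764 to 487023) it was -1.05 (SE 0.210, adjusted p = 0.0494).

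A positive value has the sign that set X shows among the libraries lacking H2A.Z. NCU05356, higher in set X, therefore had the same sign there, while NCU09933, higher in set Y, and NCU07737, higher in set X, had the opposite one. The median was 0.21 over the 53 genes and 0.016 over all genes tested. The fit has 2 residual degrees of freedom; with the replicate number as a block, which leaves 1, it called 15 of the 53 (8 higher, 7 lower) and 3002 genes in all (16.8% higher, 20.4% lower), so the 53 were near the background.

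The 59 genes were spread over all 7 chromosomes: 16 on I, 4 on II, 4 on III, 12 on IV, 7 on V, 5 on VI and 11 on VII. Of them 57 are annotated as protein coding and 2, NCU14148 and NCU14089, as non-coding RNA. Only 4 (6.78%) have a symbol, beside 11.0% of the 9614 interior genes. The 56 genes had a median exon length of 1535.5 bases against 1870.5 for all interior genes, and a median distance to the nearer chromosome end of 988 kb against 1576 kb. Overlap with another annotated gene was found for 15 of the 59 (25.4%), beside 23.3%, and in 14 of the 15 the partner lies on the opposite strand.

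On a scale that divides by exon length, the 56 genes were low in Wild type, with a median of 2.11 CPM per kb of exon beside 5.69 for all interior genes. In set X their median was 19.3 CPM per kb, beside 7.06. NCU14148 was the highest there at 4550.4 CPM per kb and NCU00732 followed at 2168 CPM per kb.

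Some of the genes are neighbours, and 4 pairs stand directly side by side. NCU07033 and NCU07034 on chromosome IV lie on the same strand with 354 bases between them, NCU04928 and NCU14089 on IV likewise with 514 bases, and NCU09023 and NCU09024 on VII with 907 bases. NCU05354 and NCU05356 on II are transcribed away from each other with 1187 bases between them. NCU05354 lies 15.7 kb from hH2Az, and NCU07485 lies 39.9 kb from set-7. Whether the neighbouring deletion bears on them was not tested.

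A stretch of chromosome IV from 725445 to 849048, chosen after the values were seen, held 5 of the genes among 42 (11.9%). The rule took 0.582% of all interior genes in this direction. The stretch was drawn from NCU04917 to gh3-4, both among the 5, so its share is high by choice. They are NCU04917, NCU04928, NCU14089, NCU04931 and gh3-4, all higher in set X. NCU04931 had 154, 149 and 105 CPM in Wild type, 191, 179 and 158 CPM in ∆set-7, 1654, 1733 and 99.8 CPM in ∆hH2Az, and 149, 127 and 976 CPM in ∆hH2Az;∆set-7. It was well transcribed in all 12 libraries, and the strains that keep H2A.Z lay next to set Y. In 11 of the 42 genes every library of set X was above every library of set Y. The 5 are among these 11 by the rule, so the count cannot be read against the 9.09% of all interior genes. Of the 11, NCU16745 and NCU04948 had at most 1.46 CPM in any library. The reverse held in gcy-1, cut-1, NCU04919, NCU04936 and NCU04941, where it held in 12.1% of all interior genes.

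None of 49 genes in 7 lists of known function belonged to the 59. The rule took 0.582% of interior genes as higher in set X and 0.0312% as higher in set Y, so a count of none is near that share. In addition con-6, hsp70-1, phr and cat-1 lie within 200 kb of a chromosome end and could not be chosen. The lists cover strain markers, conidia (the asexual spores a mycelial culture can also hold), light and clock, use of plant cell walls, sugar supply, stress, and nitrogen. Without a fold threshold, 4 of the 49 had every library of set X above set Y (con-8, con-10, clr-1 and cat-3), and 11 the reverse, 4 of them among the 5 nitrogen genes (nit-2, nit-3, en(am)-2 and cpc-1). The 9.09% and 12.1% given above for all interior genes are the background for these counts, although con-6, counted among the 11, is not an interior gene.

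The conidial markers moved in no single direction: of the 8, con-8 and con-10 were higher in set X, and con-6 and fl, a regulator of conidiation, in set Y. Their summed level was 2042 to 3485 CPM in set X, 2007 to 3148 CPM in set Y and 2528 to 12137 CPM in the 6 libraries that keep H2A.Z. The largest part of these sums was ccg-14, with 1119 to 2539, 1781 to 2676 and 2305 to 11924 CPM in the same order. The sums therefore say little of the other markers, and con-10 had at most 2.74 CPM in any library. None of the 8 was at 0 in all libraries. In 4 lists the summed levels of sets X and Y did not overlap, and in each of them they overlapped once the gene with the largest difference was left out. Among the 8 stress genes that gene was aod-1, for the alternative oxidase of mitochondria, with 4437 to 4871 CPM in set X, 8174 to 11930 CPM in set Y and 45.7 to 220.5 CPM with H2A.Z. The sum of all 8 was 11180 to 12162 CPM in set X and 14569 to 16921 CPM in set Y, but the other 7 summed to 6309 to 7641 and 4991 to 6653 CPM, which overlap, and cat-3 was higher in set X. Among the 7 plant cell wall genes it was clr-1, a regulator of cellulase genes (62.5 to 76.0 CPM in set X, 25.5 to 35.3 CPM in set Y). All 7 summed to 95.8 to 117 CPM in set X and 60.2 to 83.7 CPM in set Y, the 6 without clr-1 to 33.0 to 41.3 and 34.8 to 48.4 CPM.

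The nitrogen list summed to 1575 to 2242.0 CPM in set X and 2388 to 3162 CPM in set Y, and without cpc-1 to 581 to 1678 and 999 to 1457 CPM, although 4 of its 5 genes were each higher in every library of set Y. The strain markers summed to 60.5 to 70.4 CPM and 80.1 to 86.4 CPM, and without hH2Az to 36.2 to 51.03 and 41.0 to 45.2 CPM. The sums of light and clock genes, sugar supply genes and conidial markers overlapped between the sets, and whether any of these levels bears on the 59 genes was not tested.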

How the data were processed

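RNA-seq counts of 4 strains with 3 replicates each were used; 42 chromatin samples were not analysed here. Per the file headers, the authors counted reads per gene with featureCounts 1.6.2, using the exons annotated on NC12 and setting no option for strand, multiple alignments or overlapping genes; the deposited counts are whole and not normalized. The submitters' processing notes list Trim Galore, FastQC, BWA 0.7.15 and SAMtools 1.3.1 with no role, and the aligner was not given in the sources used here. Counts without strand cannot separate a gene from its antisense partner, and reads over 2 genes are left out; 2406 of the 10398 genes overlap another. Names came from the RefSeq table of NC12 (10397 matched by coordinates, 1118 with a symbol).

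CPM is the count over the column total, times 1000000. The 59 genes and all lists were chosen with earlier results of these data known. The text names the 10 genes with the largest gap in each direction, those with a symbol, those nearest the threshold and the 3 largest calls per test.

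Tests used edgeR 4.0.16 in R 4.3.3 (quasi-likelihood, robust, TMM, filterByExpr by strain) on the 6 libraries that keep H2A.Z; the SE is the absolute log2 fold change over the square root of F. Alternatives covered the fold, offset, distance and scaling of the choice, the filter, DESeq2 1.42.0, the label tag, all 12 libraries, the replicate block and each replicate left out. Deviations of same-numbered Wild type and ∆set-7 libraries from their strain means were correlated (r = 0.487, 0.216 and 0.260 for replicates 1, 2 and 3, across genes). Libraries of different numbers were not compared, and a shift shared by both replicates 3 would raise all 3 values. Pairing by number is therefore possible but not shown, and the replicate block was fitted as an alternative. No replicate pair was a duplicate: chi-square per gene was 25.5 to 351. On simulated data with 200 changed genes, the tests for SET-7 and the tag recovered 100% of those that passed the filter. The interaction recovered 90.7% at a log2 size of 2 and 96.1% at 4. False calls were 7 for SET-7, 4 for the tag and 6 for the interaction. The simulated libraries were independent, with a single fixed dispersion and no added spread of replicate 3. The simulation therefore checks the code and does not measure recovery in these data.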

Additional observations from a re-analysis of the deposited data

Results flagged for a closer look

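Where H2A.Z is present, the effect of the label tag (that of replicate 3 against 920) differed between ∆set-7 and Wild type in 3 of the 59 genes by edgeR's test of that difference. It was 2.25 in log2 for NCU05356, from a Wild type replicate 3 (2.48 CPM) below its partners (5.37 and 5.74 CPM) and a ∆set-7 replicate 3 (7.55 CPM) above its partners (4.00 and 2.67 CPM). It was 1.83 for NCU09933, where Wild type ranged from 38.1 to 46.8 CPM and ∆set-7 replicate 3 (59.2 CPM) stood above replicates 1 and 2 (18.7 and 17.4 CPM). It was -1.05 for NCU07737, where Wild type ranged from 158 to 170.2 CPM and ∆set-7 replicate 3 (124 CPM) stood below its partners (270.0 and 242 CPM). The call of NCU07737 was lost without Wild type replicate 1 (adjusted p = 0.0660, edgeR), while the other 2 calls held in each of the 4 fits that leave out 1 library. Each tag effect rests on 1 replicate 3 per strain, so the p-values hold no measure of how replicate 3 varies, and the count of calls rose when libraries were left out; these are candidates only.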

How the results depend on the processing

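The number of genes chosen moved with the rule. Of genes higher in set X (56) there were 120 at a fold of 2, 22 at a fold of 5 and 24 with an offset of 5 CPM, and of genes higher in set Y (3) there were 22 at a fold of 2, 1 at a fold of 5 and 5 with an offset of 0.1 CPM. Leaving out 1 library gave 59 to 134 and 3 to 19 genes; the counts were 134 and 19 without ∆hH2Az;∆set-7 replicate 3, 90 and 15 without ∆hH2Az replicate 3, and 6 higher in set Y without ∆hH2Az replicate 2. TMM scaling gave 58 and 3.

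For loss of SET-7, 2 of the 59 and 116 genes in all were called. DESeq2's size factors gave 1 of the 59, its Wald test 4 (208 in all), the tag as a covariate 4 (182 in all), the libraries tagged 920 alone 13 (440 in all) and the fit of all 12 libraries 0 (86 in all). The 59 were chosen for their spread in the libraries lacking H2A.Z, which the fit of all 12 includes. Why the calls were lost in it was not tested. Leaving out 1 library gave 1 to 3, and 66 to 128 in all, the lowest without Wild type replicate 2 and with 77 without Wild type replicate 3. For the label tag, 10 of the 59 and 393 in all were called; the Wald test gave 19 (976 in all), and leaving out 1 library gave 0 to 16, and 0 to 1607 in all. The overall count was 0 without ∆set-7 replicate 1, 2 without Wild type replicate 2, 128 without Wild type replicate 1, 815 without ∆set-7 replicate 3 and 1607 without Wild type replicate 3.

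For the difference of the tag effect, 3 of the 59 and 214 in all were called. No filter gave 586 in all, the Wald test 6 (602 in all), the replicate block 15 (3002 in all), and leaving out 1 library 4 to 12, and 513 to 2088 in all (513, 911, 2088 and 1223 without replicates 1 and 2 of Wild type and of ∆set-7). The calls rose with 1 residual degree of freedom, so these counts are unsteady; the cause was not tested. The replicate block moved no other count by over 1.5 times. Of the values of single called genes under the alternatives, 108 kept their call, 32 lost it and none changed sign. The tag with a replicate block, and the difference without replicate 3 of either strain, could not be fitted. The depth of 13581416 to 19720473 counts limits genes of a few CPM.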
